A study of Mus musculus with 14 samples.

Results

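The sites described here were the genomic positions occupied by SIM2 in clone A6, 1 mouse embryonic stem (ES) cell clone that carries a FLAG-tagged Sim2 transgene, and the question was how the strength of the SIM2 signal at a site related to the presence and strength of NANOG, OCT4, MED1 and MED12 at the same site. A SIM2 peak of clone A6 was kept when no peak of the EB3 control had its centre within 100 bp, which left 2377 of 2387 peaks. Each kept peak was joined to the nearest peak of each factor in the same clone when less than 100 bp separated the 2 peak intervals. SIM2 was mapped by chromatin immunoprecipitation and sequencing (ChIP-Seq) with an anti-FLAG antibody in clone A6, in 2 further Sim2-expressing clones (B8, C4) and in their parental line EB3, which lacks the transgene. The transgene is driven by a modified cytomegalovirus promoter that tetracycline shuts off, and all cells had been kept in tetracycline-free medium for 26 h to induce it. OCT4, NANOG, MED1 and MED12 were each mapped in clone A6 with an antibody against the native protein, and their mapping in other cells was not analysed here. Each ChIP was 1 library, so no factor signal has a replicate, and clones B8 and C4 give the only replicates of the SIM2 signal. The lists hold peaks and not read totals, so the depth of the libraries is unknown here.

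SIM2 is a transcription factor of the bHLH-PAS family, whose members pair a basic helix-loop-helix domain with PAS domains for dimerization. It binds DNA as a dimer with ARNT at sites with an ACGTG core. NANOG and OCT4 are transcription factors of the pluripotent state of ES cells, and OCT4 binds an octamer element. MED1 and MED12 are subunits of Mediator, the complex that links enhancer-bound factors to RNA polymerase II, and ES cell enhancers with much Mediator lie near genes of cell identity.

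The strength measure was the findPeaks score, a whole number of tags given to each peak. It ran from 20 to 100 over the sites, with a median of 27 and quartiles of 23 and 34. The lowest score of 20 was held by 90 sites, and signals that were not called as peaks are not in the list. A score of 50 or more was reached by 165 sites and a score of 70 or more by 33. By position, 1318 sites were intergenic, 880 intronic, 125 promoter-proximal (no more than 1 kb from a protein-coding start site) and 54 exonic.

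The sequences of 9 sites are shown because they mark the ends of the relation: the strongest SIM2 sites with all factors and with none, the weakest with all factors, the sites with the strongest factor signals, and the strongest sites that carry a motif. They are on the plus strand of mm9 and centred on the SIM2 peak. Capitals mark exact matches, on either strand, to the bHLH-PAS cores ACGTG and GCGTG, the octamer ATGCAAAT, the SOX motif CATTGTT, the NANOG homeodomain motif CCATTA, the KLF motif CCCACCC, the ESRRB motif AAGGTCA and the TEAD motif CATTCC. The GCGTG core and the sites near Acp6, Fyn and Slain2 were added after the values were seen.
Skap2, chr6:52028887-52028986: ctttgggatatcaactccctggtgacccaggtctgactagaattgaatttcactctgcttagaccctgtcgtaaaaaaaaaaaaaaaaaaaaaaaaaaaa
Ppap2a, chr13:113561123-113561222: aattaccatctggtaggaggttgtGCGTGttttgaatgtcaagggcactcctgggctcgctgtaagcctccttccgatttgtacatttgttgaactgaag
Tgif1, chr17:71215894-71215993: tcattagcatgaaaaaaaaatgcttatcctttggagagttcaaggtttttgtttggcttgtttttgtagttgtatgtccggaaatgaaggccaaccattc
Gm4609, chr3:121848420-121848519: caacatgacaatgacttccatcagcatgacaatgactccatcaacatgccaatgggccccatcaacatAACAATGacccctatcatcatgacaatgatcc
Gm6994, chr14:77919476-77919575: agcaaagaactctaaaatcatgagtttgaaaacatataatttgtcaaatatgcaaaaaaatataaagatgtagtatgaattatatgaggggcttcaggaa
Stmn2, chr3:8245870-8245969: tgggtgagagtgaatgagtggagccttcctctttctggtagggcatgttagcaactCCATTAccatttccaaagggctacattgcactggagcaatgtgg
Acp6, chr3:96963437-96963636: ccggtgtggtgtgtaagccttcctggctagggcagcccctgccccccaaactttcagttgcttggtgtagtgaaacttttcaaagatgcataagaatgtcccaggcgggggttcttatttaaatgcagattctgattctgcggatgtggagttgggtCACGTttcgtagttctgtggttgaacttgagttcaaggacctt
Fyn, chr10:39254335-39254534: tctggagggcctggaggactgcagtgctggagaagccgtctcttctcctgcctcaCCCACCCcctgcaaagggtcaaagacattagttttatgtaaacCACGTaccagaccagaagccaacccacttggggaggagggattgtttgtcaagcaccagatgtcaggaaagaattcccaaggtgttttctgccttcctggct
Slain2, chr5:73293649-73293848: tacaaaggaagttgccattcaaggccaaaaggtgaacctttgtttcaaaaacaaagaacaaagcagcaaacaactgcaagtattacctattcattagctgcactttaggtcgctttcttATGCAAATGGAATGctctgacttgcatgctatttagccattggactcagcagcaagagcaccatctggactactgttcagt

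Most SIM2 sites of clone A6 lay beside at least 1 of the 4 factors. A NANOG peak was present at 1811 of the 2377 sites (76.2%), an OCT4 peak at 912 (38.4%), a MED12 peak at 542 (22.8%) and a MED1 peak at 247 (10.4%). At least 1 factor was present at 1849 sites (77.8%), and 528 sites had none. The factors were nested in large part: OCT4 was found without NANOG at 24 sites, and a Mediator subunit without NANOG at 21 of the 580 sites with Mediator. Both Mediator subunits were present at 209 sites. Few sites shared a factor peak with another SIM2 site: 2 for NANOG, 6 for OCT4, 8 for MED1 and 4 for MED12.

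Strong SIM2 sites carried each of the 4 factors more often than weak ones. The sites were cut into deciles of score with equal scores kept together, so that the lowest decile held 294 sites with scores of 20 to 21 and the highest 249 sites with scores of 45 to 100. In the lowest decile 68.7% of the sites had NANOG (Wilson 95% confidence interval 63.2 to 73.7), against 90.4% in the highest (86.1 to 93.4). The share with OCT4 was 30.3% (25.3 to 35.8) in the lowest decile and 65.9% (59.8 to 71.5) in the highest. That with MED12 was 11.6% (8.39 to 15.7) and 44.2% (38.1 to 50.4), and that with MED1 was 4.76% (2.86 to 7.83) and 22.9% (18.1 to 28.5). None of these pairs of intervals overlapped. With only the factor peaks of at least 8 times the input, all shares were lower, for example 5.44% and 24.5% for OCT4 and 1.70% and 13.3% for MED12, and the highest decile was above the lowest for each factor. The intervals cover counting error only, since each factor has 1 library.

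Most of the rise lay at the upper end of the SIM2 range. In decile 7, with scores of 29 to 31, MED1 was present at 6.92% of the sites and OCT4 at 37.7%. In decile 9, with scores of 37 to 44, these shares were 17.4% and 45.4%. MED12 rose earlier, with 23.5% in decile 7. Sites with none of the factors made up 30.6% of the lowest decile and 8.43% of the highest, and sites with all 4 made up 2.04% and 19.7%. Of the 33 sites with a SIM2 score of 70 or more, 1 had no factor.

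**Figure D1:**
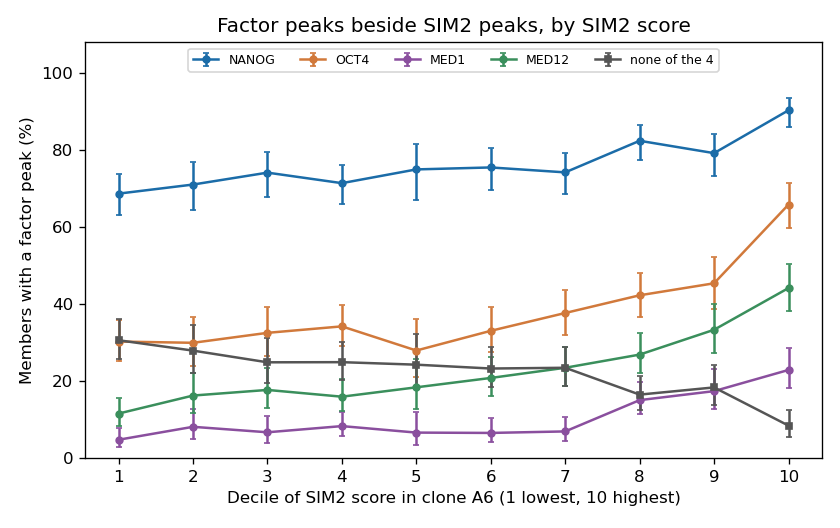
Percentage of SIM2 sites of clone A6 with a NANOG, OCT4, MED1 or MED12 peak, or with none of them, in each decile of the SIM2 score. Bars are Wilson 95% confidence intervals of the counts, and the highest decile is at 90.4% for NANOG, 65.9% for OCT4, 44.2% for MED12, 22.9% for MED1 and 8.43% for no factor.

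The SIM2 score also rose with the number of factors at a site. The median score was 25 at the 528 sites with no factor, 26 at the 798 with 1, 28 at the 597 with 2, 29 at the 296 with 3 and 36 at the 158 with all 4. The distributions overlapped widely: the quartiles were 22 and 30 with no factor and 26.3 and 48 with all 4. The largest step was between 3 and 4 factors. Among the combinations with NANOG, the median was 26 for NANOG alone (n = 770), 28 for NANOG with OCT4 (n = 482), 29.5 for NANOG with MED12 (n = 96) and 29 for NANOG, OCT4 and MED12 (n = 228). NANOG with both Mediator subunits but no OCT4 had a median of 31 over 43 sites.

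The median score was also highest with all 4 factors and lowest with none in the SIM2 lists of the other clones, which were filtered against EB3 in the same way and joined to the factor peaks of A6. With 0 to 4 factors the medians were 12, 14, 15, 15 and 17 in B8, over 2134 peaks, and 12, 13, 14, 14 and 16 in C4, over 629 peaks, so that 2 and 3 factors were tied in both. The ratio of the 4-factor median to the no-factor median was 1.44 for A6, 1.42 for B8 and 1.33 for C4, with a mean of 1.40 ± 0.0561 (SD, n = 3 clones). The rank correlation of the SIM2 score with the number of factors was positive in all 3 clones, at 0.23 (A6), 0.37 (B8) and 0.49 (C4). Over the sites shared with A6 alone it was lower, at 0.19 for B8 (n = 1168) and 0.20 for C4 (n = 384). At these shared sites the C4 median was 15 with 2 factors and 14 with 3. The 3 values share the factor libraries of A6, so they are replicates of the SIM2 signal alone.

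**Figure D2:**
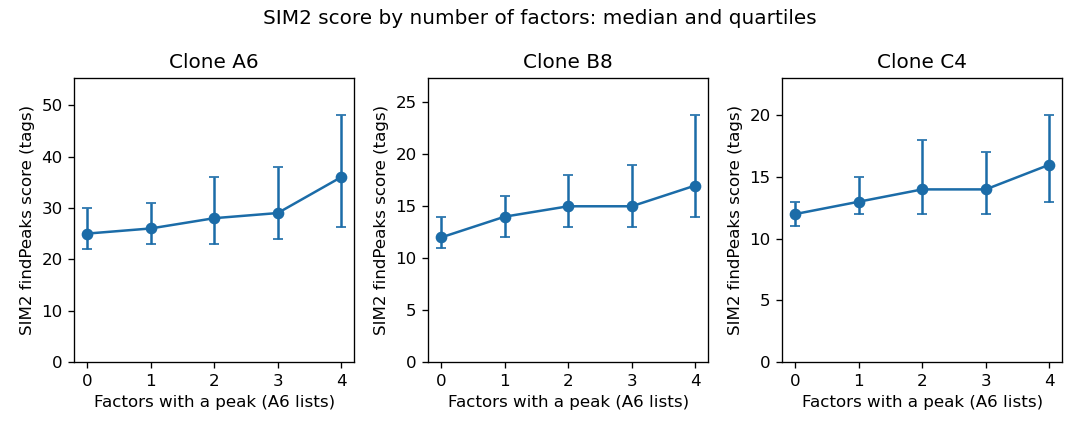
SIM2 findPeaks score in tags against the number of factors with a peak at the site, for clones A6, B8 and C4. Points are medians and bars the lower and upper quartiles, and each panel has its own score axis starting at 0. The median rose from 25 to 36 in A6, from 12 to 17 in B8 and from 12 to 16 in C4.

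Where a factor was present, its own score rose weakly with that of SIM2. Spearman's rank correlation between the SIM2 score and the factor score was 0.18 for NANOG (n = 1811 sites), 0.19 for OCT4 (n = 912), 0.32 for MED1 (n = 247) and 0.21 for MED12 (n = 542). These are descriptions across sites of 1 SIM2 library and 1 library of each factor, made from the same clone, and the sites are not independent replicates. In the lowest decile of SIM2 score the median NANOG score was 25 tags and in the highest 38, while the median OCT4 score was 35 and 44 tags. The median MED1 score was 18 and 24 tags and that of MED12 19 and 23. The value for MED1 was the least steady: it was 0.09 over the 35 sites whose MED1 peak was at least 8 times the input, and 0.18 over the 142 sites whose SIM2 peak was. Across the clones the rank correlation was 0.16 ± 0.0561 for NANOG, 0.20 ± 0.0177 for OCT4, 0.29 ± 0.112 for MED1 and 0.16 ± 0.0674 for MED12 (mean ± SD, n = 3 clones). The values of the clones overlapped between NANOG, OCT4, MED1 and MED12, and the differences between factors were not tested.

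**Figure D3:**
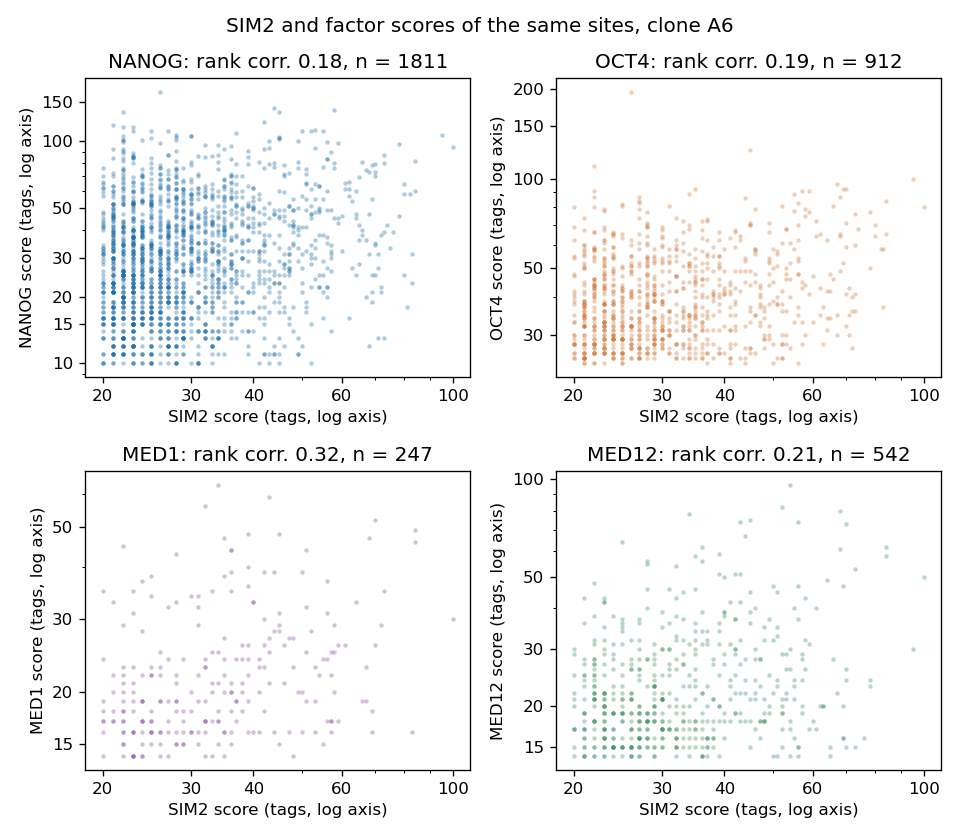
The findPeaks score of each factor against that of SIM2 at the sites of clone A6 where the factor had a peak, both in tags on log axes, 1 point a site. The clouds are broad at every SIM2 score, with rank correlations of 0.18 for NANOG, 0.19 for OCT4, 0.32 for MED1 and 0.21 for MED12.

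Some pairs of factor scores were closely tied and others were not. The rank correlation was 0.74 between MED1 and MED12 (n = 209) and 0.58 between NANOG and OCT4 (n = 888), and 0.39 between NANOG and MED12 (n = 525). It was 0.35 between NANOG and MED1 (n = 235), 0.30 between OCT4 and MED12 (n = 392) and 0.18 between OCT4 and MED1 (n = 184). The 0.32 of SIM2 with MED1, over a different set of 247 sites, was below 0.74, 0.58, 0.39 and 0.35 and above only 0.30 and 0.18. With the ranks of the NANOG score held fixed, the partial rank correlation of SIM2 was 0.16 with OCT4, 0.25 with MED1 and 0.18 with MED12. Over the same sites with nothing held fixed, the values were 0.19 (n = 888), 0.32 (n = 235) and 0.21 (n = 525). With the OCT4 score held fixed, the partial rank correlation of SIM2 with NANOG was -0.0011 over the 888 sites with both. That value was 0.0064 in B8 (n = 733) and -0.17 in C4 (n = 249). These sites are only a part of those with NANOG, so the values cannot be set directly against the 0.18 over all 1811 sites. In A6 the partial rank correlation of SIM2 with NANOG was 0.16 with MED1 held fixed (n = 235). With MED12 held fixed it was 0.0513 (n = 525). For NANOG, the value with nothing held fixed was not computed over the sites with OCT4, MED1 or MED12. Any change on holding a factor fixed therefore cannot be judged. Within the highest quintile of NANOG score, from 51 to 167 tags, the median SIM2 score was 32 at 229 sites with Mediator and 28 at 131 without. Within the lowest quintile, from 10 to 17 tags, it was 29 at 23 sites with Mediator and 26 at 349 without.

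Read from the side of the factors, strong factor peaks were more often SIM2 sites than weak ones. Of the MED12 peaks, 30.4% in the lowest quintile of their own score had a SIM2 site and 83.1% in the highest. For OCT4 the shares were 20.9% and 59.4%, for MED1 12.0% and 53.5%, and for NANOG 2.51% and 33.1%. The NANOG list was the longest, with 14815 peaks against 2532 for OCT4, 1071 for MED12 and 762 for MED1. Over all peaks of a list, the share with a SIM2 site was 50.4% for MED12, 35.9% for OCT4, 32.0% for MED1 and 12.2% for NANOG. In the highest 1% of each list, a SIM2 site lay at 12 of 12 MED12 peaks, 26 of 29 OCT4 peaks and 106 of 162 NANOG peaks. For MED1 it was 0 of 8 peaks, a small count. In the highest quintile of MED1 score the median input was 4.2 tags, against 3.4 over all MED1 peaks. Whether the input bears on the MED1 count was not tested. The highest MED1 score in the list was 251 and the highest at a SIM2 site was 63.

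**Figure D4:**
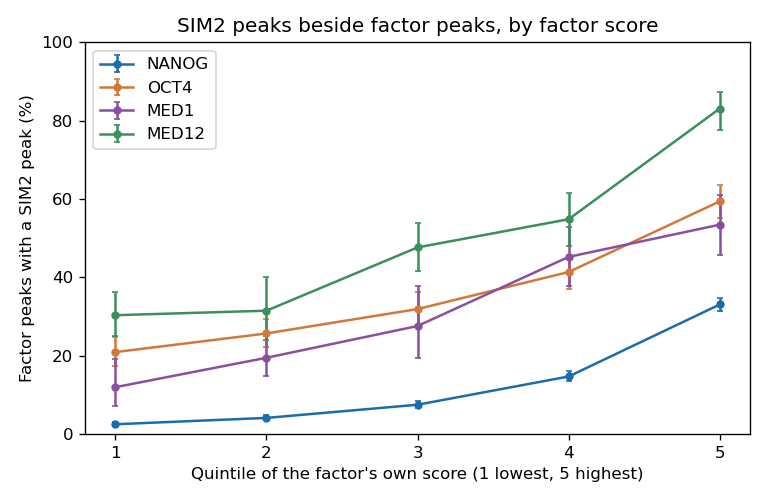
Percentage of the peaks of each factor in clone A6 that had a SIM2 site, by quintile of the factor's own score. Bars are Wilson 95% confidence intervals of the counts, and the shares rose from 30.4% to 83.1% for MED12, from 20.9% to 59.4% for OCT4, from 12.0% to 53.5% for MED1 and from 2.51% to 33.1% for NANOG.

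The strongest site of all, with a SIM2 score of 100, was intergenic at -66389 bp from the start site of Skap2, which encodes a Src-family kinase adaptor. It had NANOG at 94, OCT4 at 80, MED1 at 30 and MED12 at 50 tags, and scores of 51 in B8 and 43 in C4. The second, with 95, lay near Slain2 and had NANOG at 107, OCT4 at 100 and MED12 at 30 tags but no MED1 peak. It is the site whose sequence above holds an octamer. Both were strong NANOG and OCT4 sites as well.

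The other strongest sites with all 4 factors were intergenic, as were 55.4% of all sites. The median distance to a start site was 24246 bp over all sites and 19198.5 bp over those with all 4 factors. Klf5, a Krüppel-like factor of ES cell self-renewal, had a site 26091 bp downstream of its start site with a SIM2 score of 84, and MED1 and MED12 scores of 49 and 58. Sall1, a zinc-finger factor, had a site 40451 bp downstream with a score of 84, with MED1 at 46 and MED12 at 62. Prdm14, a regulator of the ground state and of germ cells, had a site 42317 bp downstream with a score of 73. The site near Pdcd6ip had a score of 70, which the site near Mkrn1, outside the naming rule by the order of ties, also had. The Skap2, Klf5, Sall1, Prdm14, Mkrn1 and Pdcd6ip sites each had a peak in both B8 and C4. Of all sites in the highest decile of A6 score, 94.8% had a peak in B8 and 75.9% in C4.

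High SIM2 scores were also reached without any of the factors. The third strongest site, near Ppap2a, a lipid phosphatase gene, had a score of 85 with none of the 4 factors, and scores of 36 in B8 and 24 in C4. The next were an intronic site of Fyn, a Src-family kinase gene, with 66, and sites near Nfat5 with 61, at the promoter of Zfp7 with 59 and near Tmem40 with 58. All 5 had a peak in both other clones, as did many sites of the highest decile (94.8% in B8 and 75.9% in C4).

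Strong factor signals stood beside low SIM2 scores. The sites near Tgif1 and in an intron of Top1 had all 4 factors and a SIM2 score of 20, and the site near Ubtf was 1 of 4 with a score of 21. None of the 3 named had a peak in B8 or C4, while 1 of the others with a score of 21 had one in B8. Of all sites in the lowest decile, 21.1% had a peak in B8 and 2.38% in C4. At the Tgif1 site NANOG stood at 59, OCT4 at 39, MED1 at 24 and MED12 at 25 tags. The highest NANOG score at any SIM2 site, 167, and the highest OCT4 score, 195, belonged to 1 site in an intron of Abca4, whose nearest start site is that of Gm4609, and the SIM2 score there was 26. The sequence printed for that site repeats the letters catgacaatga, and any effect of repeats on the scores was not tested. The highest MED1 score, 63, was in an intron of Enox1 with a SIM2 score of 34. The highest MED12 score, 96, was near Stmn2 with a SIM2 score of 54, and that site had no peak in B8 or C4.

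A SIM2 peak of B8 had its centre within 100 bp at 1168 of the 2377 sites (49.1%), and one of C4 at 384 (16.2%). The share found in B8 rose from 21.1% in the lowest decile of A6 score to 94.8% in the highest, and that in C4 from 2.38% to 75.9%. At the shared sites the A6 score had a rank correlation of 0.60 with the B8 score and 0.68 with the C4 score. Among weak sites, with A6 scores of 20 to 23, the share found in B8 was 19.8% (14.8 to 25.9) with no factor and 45.5% (34.0 to 57.4) with 3. With all 4 it was 36.0% (20.2 to 55.5), over 25 sites. At scores of 24 to 31 the share was 34.5% (28.6 to 40.9) with no factor and 46.8% (37.8 to 56.1) with 3. With all 4 it was there 38.9% (24.8 to 55.1), over 36 sites. Among sites with scores of 32 or more these shares were 73.3% with no factor and 82.5% with all 4, with intervals that overlapped. In C4 the shares of these stronger sites were 30.5% (22.5 to 39.8) with no factor, 52.0% (45.5 to 58.4) with 2 and 45.4% (35.8 to 55.3) with all 4.

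The bHLH-PAS core ACGTG was most frequent where no factor was present. An exact match lay within 100 bp of the centre at 22.5% of the sites with no factor (19.2 to 26.3) and at 9.95% of the sites with at least 1 (8.67 to 11.4). By comparison it was found in 9.01% of windows placed 10 kb to either side of the sites and in 5.01% of the NANOG peaks without a SIM2 site. The sites with no factor were also more often within 1 kb of a start site, 11.2% against 2.53% with all 4. Over 1 kb from a start site the shares with ACGTG were 21.3% with no factor and 9.98% with at least 1. GCGTG, which is the match in the Ppap2a sequence, was found at 22.5% and 11.4% of the sites, against 10.5% of the windows at 10 kb. The KLF motif was also more frequent with no factor, at 18.9% against 11.7% with at least 1. The octamer was less frequent there, at 4.17% against 6.98%. Base composition was not compared between these groups of sites, and its part in the shares was not tested.

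Where a factor was present, ACGTG was more frequent at strong SIM2 sites. It was found at 5.77% of such sites in the lowest 3 deciles of score (4.04 to 8.16), at 8.94% in deciles 4 to 7, at 13.2% in deciles 8 to 9 and at 16.7% in the highest decile (12.4 to 22.0). The median SIM2 score of these sites was 31 with the core and 27 without. Among sites with no factor the medians were 24 and 25, and the share with the core did not follow the score, with 26.9% in the lowest 3 deciles and 23.8% in the highest, the latter over 21 sites. The Acp6 sequence is the strongest of the sites with both a factor and the core, at a score of 83, and that of Fyn the strongest with the core and no factor.

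**Figure D5:**
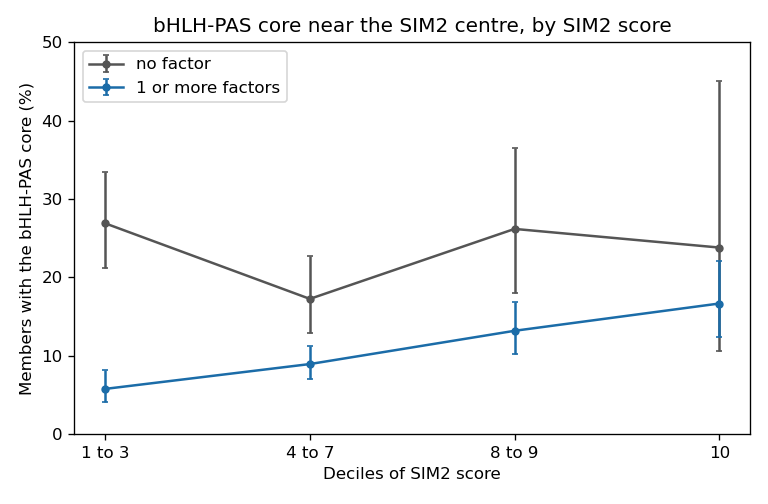
Percentage of SIM2 sites of clone A6 with an exact ACGTG match within 100 bp of the centre, by deciles of the SIM2 score, for sites with no factor and with 1 or more. Bars are Wilson 95% confidence intervals of the counts, and the share rose from 5.77% to 16.7% where a factor was present and was between 17.3% and 26.9% where none was.

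The octamer and KLF motifs differed with the factors, while the median SIM2 score was 27 with and without each of them. The octamer was found at 11.8% of the sites with NANOG and OCT4 alone and at 4.17% of those with no factor, and at 5.06% of those with all 4, against 1.05% of the windows at 10 kb and 6.84% of the NANOG peaks without a SIM2 site. The KLF motif was found at 18.9% of the sites with no factor and 8.86% of those with all 4, against 6.19% of the windows at 10 kb and 7.34% of the NANOG peaks without a SIM2 site. A match is a description of the letters in a window and not a binding site.

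The form of the SIM2 peak also differed with the factors. The focus ratio, the fraction of tags at the expected place around the peak centre, had a median of 0.794 with no factor, 0.748 with 1, 0.728 with 2, 0.698 with 3 and 0.678 with all 4. Its rank correlation with the SIM2 score was 0.0348. Another SIM2 site lay within 10 kb of 17.4% of the sites with no factor, 14.8% with 1, 13.4% with 2, 28.0% with 3 and 31.6% with all 4.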

How the data were processed

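The 8 peak lists came from single-end ChIP-Seq reads that the authors mapped to the mouse genome mm9 with BWA, and from HOMER findPeaks against the input after removal of duplicate reads. Per the file headers and the study's methods, the deposited lists give the authors' findPeaks score, the normalized tag count (a signal), the focus ratio as a fraction, total tags as a count or a scaled signal, input tags, fold ratios against input, and p-values. The deposited p-values were not used. SIM2 sites, factors and motifs were chosen with earlier results of these data known.

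Peaks were joined with Python 3.11.15, pandas 2.3.3 and scipy 1.17.1, by the rule of bedtools 2.31.1 window, tested on simulated peaks. Sites, genes and sequences were read from NCBIM37 (mm9) and GENCODE vM1. Sites to be named were fixed by rank: the 5 with the highest SIM2 score among all sites, with all 4 factors and with none, the 3 lowest with all 4, and the highest score of each factor. Correlations are Spearman's, with no p-value, since sites are not replicates. Alternatives covered the join distance, the strength measure, fold limits, the filter and subsets of sites.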

Additional observations from a re-analysis of the deposited data

How the results depend on the processing

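All 71 recomputed rank correlations of clone A6 stayed positive, and for the number of factors they ran from 0.2056 to 0.253. Some settings were near repeats of the main one. The EB3 filter removed only 10 peaks, and the A6 score had a rank correlation of 0.99 with the normalized tag count. Of 246 recomputed values, 57 moved by more than the spread between clones or the counting interval. The ratio of the 4-factor to the no-factor median ran from 1.28 to 1.94. No cause of these moves was tested.

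With factor peaks of at least 8 times the input, the rank correlation was 0.0919 for MED1 and 0.2965 for MED12, and the shares in the lowest and highest deciles were 47.6% and 79.9% for NANOG, 5.44% and 24.5% for OCT4, 0.6803% and 4.02% for MED1 and 1.70% and 13.3% for MED12. The 4-factor median was then 50.5 over 12 sites and its ratio to the no-factor median 1.94. With SIM2 peaks of at least 8 times the input, the rank correlation was 0.2467 for OCT4 and 0.1757 for MED1, the lowest decile had NANOG at 80.9%, OCT4 at 41.6% and MED12 at 24.7%, the highest OCT4 at 75.9% and MED1 at 29.9%, and the medians were 34.5 and 44 (ratio 1.28). At sites also found in B8 or C4, the rank correlation for OCT4 was 0.1681, the lowest decile had NANOG at 74.2%, OCT4 at 38.7%, MED1 at 8.06% and MED12 at 20.2%, the highest OCT4 at 72.2%, and the medians were 29 and 41. With peak centres within 100 bp, NANOG was at 58.8% and 80.3%, OCT4 at 24.1% in the lowest decile, MED1 at 15.7% and MED12 at 35.7% in the highest, and the ratio was 1.52. Overlapping intervals gave NANOG at 84.7% in the highest decile, and the normalized tag count gave 74.3% in the lowest. The highest quintile had NANOG at 85.3% and OCT4 at 56.6%. Counting an absent MED1 as 0 gave a rank correlation of 0.1652. Sites with the lowest input tags, a subset chosen after seeing the data, gave 0.1665 for OCT4.

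Within 50 bp of the centre the shares with no factor and with at least 1 were 16.1% and 6.49% for ACGTG, 9.09% and 5.30% for the KLF motif and 2.65% and 4.54% for the octamer. Leaving out each clone gave mean rank correlations of 0.1392 to 0.1941 for NANOG, 0.1936 to 0.2099 for OCT4, 0.2463 to 0.3554 for MED1, 0.1401 to 0.2017 for MED12 and 0.3020 to 0.4274 for the number of factors. No test was run, paired or not, since each factor has 1 library. The inputs that share clone numbers with the SIM2 libraries entered through the authors' peak calling and have no peak list used here.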
